A study of Mus musculus with 16 samples.

Results

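The genes described here are 10 UDP-glucuronosyltransferases (UGTs) of mouse liver, namely Ugt1a1, Ugt1a5, Ugt1a6a, Ugt2a3, Ugt2b1, Ugt2b5, Ugt2b34, Ugt2b35, Ugt2b36 and Ugt2b38. They were taken as a fixed list of Ugt1 and Ugt2 genes with a probe on the array, and all 10 had one, among 19057 genes with a probe of a single gene. RNA was measured in whole livers of mice 2 months old, on 16 Illumina bead arrays with 1 array per sample. The groups were 3 male and 5 female wild-type (WT) livers, and 3 male and 5 female livers of the genotype hs-RXRa-Dex4-/-, called hs-RXRα KO. In these KO livers a part of Rxra is deleted in hepatocytes, and the other cells were left with their Rxra. The paper cites earlier mice whose hepatocytes lacked the DNA-binding domain of RXRα. The mouse strain, the Cre driver and any pooling of animals for the arrays are not given in the sources used here.

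UGTs sit in the membrane of the endoplasmic reticulum and attach glucuronic acid from UDP-glucuronic acid to bilirubin, steroids, bile acids and drugs, which makes them soluble enough to leave in bile or urine. The Ugt1a enzymes come from a single locus, in which each gene has a first exon and promoter of its own that is joined to the same downstream exons, while each Ugt2b enzyme has a gene of its own. RXRα is the partner with which nuclear receptors such as PXR, CAR, PPARα and FXR bind DNA, and many of these receptors are known to act on Ugt genes. In the RefSeq annotation of GRCm38.p6, 7 of 9 Ugt1a genes on chromosome 1 end at the same base, 88220002. Ugt1a6a spans chr1:88134809-88220002, Ugt1a5 spans chr1:88166012-88220002 and Ugt1a1, the last in the row, spans chr1:88211959-88220002. The 7 Ugt2 members lie on chromosome 5 between Ugt2b34, at chr5:86889770-86906937, and Ugt2b38, at chr5:87409939-87424203.

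The promoters of the 3 members that were lower in male KO than in male WT livers are shown first, since the genotype comparison turns on these genes. Each is the 250 bases before the annotated start in RefSeq (GRCm38.p6), and all 10 members matched this table. Capitals mark matches to 4 motifs, searched on both strands. AGGTCA, the nuclear receptor half-site, was found in 14.0% of 32851 promoters of this length. The HNF1 half-site GTTAAT was found in 6.43%, the STAT5-type palindrome TTCNNNGAA in 7.02%, and the dioxin response core GCGTG in 28.2%.
Ugt1a1, chr1:88211709-88211958, plus strand: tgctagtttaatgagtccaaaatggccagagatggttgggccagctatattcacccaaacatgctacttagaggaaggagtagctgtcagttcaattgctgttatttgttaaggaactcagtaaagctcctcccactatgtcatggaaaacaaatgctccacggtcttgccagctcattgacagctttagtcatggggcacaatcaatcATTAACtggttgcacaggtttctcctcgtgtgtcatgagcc
Ugt2b34, chr5:86906938-86907187, minus strand: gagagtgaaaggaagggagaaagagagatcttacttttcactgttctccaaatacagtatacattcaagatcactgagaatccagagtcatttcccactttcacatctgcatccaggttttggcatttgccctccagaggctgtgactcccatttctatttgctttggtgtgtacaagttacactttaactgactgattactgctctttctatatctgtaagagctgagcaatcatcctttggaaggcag
Ugt2b35, chr5:87000610-87000859, plus strand: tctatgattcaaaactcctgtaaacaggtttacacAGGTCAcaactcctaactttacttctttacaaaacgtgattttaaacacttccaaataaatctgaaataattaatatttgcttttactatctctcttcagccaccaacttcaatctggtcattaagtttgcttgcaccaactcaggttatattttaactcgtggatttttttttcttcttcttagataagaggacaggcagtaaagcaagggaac
The capitals of Ugt1a1 are an HNF1 half-site on the opposite strand, at position -41 from the start. Those of Ugt2b35 are the nuclear receptor half-site, at position -215. Ugt2b34 had no match to these letters in this window. The letters alone are described, and binding was not tested.

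The last 60 bases before the start of Ugt2b36, Ugt2b5 and Ugt2b38 are shown because these promoters hold an AGGTCA at nearly the same place. The probes of Ugt2b36 were bright on every array. Those of Ugt2b5 and Ugt2b38 were detected on none, which does not show that these genes are silent.
Ugt2b36, chr5:87092556-87092615, minus strand: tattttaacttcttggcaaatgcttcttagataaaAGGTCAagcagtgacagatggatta
Ugt2b5, chr5:87140341-87140400, minus strand: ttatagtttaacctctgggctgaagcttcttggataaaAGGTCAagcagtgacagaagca
Ugt2b38, chr5:87424204-87424263, minus strand: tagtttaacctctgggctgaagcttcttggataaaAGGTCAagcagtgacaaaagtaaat
The match starts at position -25 in Ugt2b36 and Ugt2b38 and at -22 in Ugt2b5. The longest run of bases shared by all 3 promoters was 22 bases, and Ugt2b5 and Ugt2b38 shared a run of 62 bases. Of the other members, Ugt1a6a had an HNF1 half-site at -50 and a STAT5-type palindrome at -121, Ugt1a5 had a dioxin response core at -49, and Ugt2a3 had HNF1 half-sites at -54 and -47. Ugt2b1 had no match.

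Each value is a linear intensity that was deposited after background subtraction and, as the sorted values of the arrays show, after quantile normalization. A probe was counted as detected above 3 times the root mean square of an array's values below 0, which came to 20.9 to 21 on the 16 arrays. Differences are given on the scale log2(intensity + 16), so the change of a dim gene such as Ugt1a5 is understated, and groups were compared by limma with p-values adjusted over the 9906 genes tested, at a threshold of 0.05. The labels number the samples of a group without saying how they were taken, so the p-values measure only the spread between these samples, which may in part be technical. Of the members 8 were tested. The single probes of Ugt2b5 (-7.18 to 14.2) and Ugt2b38 (-14.2 to 5.69) were detected on 0 arrays. This does not show that the genes are silent, since a probe can fail to read its gene. For Ugt2a3, 1 probe was detected on 0 arrays and the other on all 16.

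All 7 hepatocyte markers were detected on every array, and the kidney markers and the cholangiocyte markers Epcam and Krt19 on none. Summed over their list, the 5 sinusoidal endothelial markers came to 6002 to 7186 in male WT and 7084 to 9031 in female WT livers, with Kdr undetected. The 5 stellate cell markers came to 6516 to 7129 in male WT and 7993 to 9634 in female WT livers. In KO livers the endothelial sums were 6482 to 7351 in males and 7718 to 8939 in females, and 1 of the 4 tested endothelial markers was called lower in males in each genotype. The cholangiocyte markers, 4 with a probe and 2 detected on any array, came to 94.6 to 179.8 in male WT and 223 to 359.6 in male KO livers. In females they came to 98.4 to 219.6 in WT and 159.5 to 308.6 in KO livers. The 7 hepatocyte markers had 1 called lower in males in WT livers, with a median male minus female difference of -0.296. The exocrine pancreas markers, 2 with a probe and 1 detected, came to 1966 to 3410 in male and 711 to 2121 in female WT livers, and to 2282 to 2995 in male and 918 to 2252 in female KO livers. The part of these cells in the results below was not tested, and in whole liver fewer cells of a type and less RNA per cell cannot be told apart. The targeted gene Rxra had 1 probe, detected on all arrays at 47.7 to 109 without a called difference. Its KO minus WT difference was 0.33 ± 0.24 (SE) in males and 0.17 ± 0.19 in females (limma adjusted p over probes 0.572 and 0.813). The position of this probe relative to the deleted part is not given, so it does not check the genotype labels.

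Sex differences in WT livers were called for 3 of the 8 tested members, against 3.73% of all genes tested. Ugt1a5 and, by its brightest probe, Ugt1a6a were lower in males (2.11% of all genes were), and Ugt2b35 was higher in males (1.62% of all genes). The other 2 probes of Ugt1a6a had the opposite sign (0.446 and 0.368, not called). The median difference, male minus female, was 0.12 over the members and -0.025 over all genes. In KO livers 2 members were called, Ugt1a5 and Ugt1a1, both lower in males (1.39% of all genes were called lower and 0.989% higher, 2.38% in all). Between genotypes, 3 members were lower in male KO than in male WT livers (Ugt1a1, Ugt2b34 and Ugt2b35), where 0.646% of all genes were called lower, 0.919% higher and 1.56% in all. In females 2 members were lower (Ugt1a1 and Ugt2b34), where 1.09% of all genes were called lower, 1.29% higher and 2.38% in all. No tested member was called higher in KO livers of either sex by limma, while 5 of the 8 had an unadjusted p under 0.05 in either direction in each sex, as did 14.3% of all genes in males and 12.4% in females. The median KO minus WT difference of the members was -0.43 in males and -0.49 in females, beside 0.022 and 0.004 over all genes. The female median depends on the brightest Ugt1a6a probe (-0.54 in females). The other 2 probes of that gene had the opposite sign there (0.56 and 0.88), and the mean of its probes gave 0.3.

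**Figure D1:**
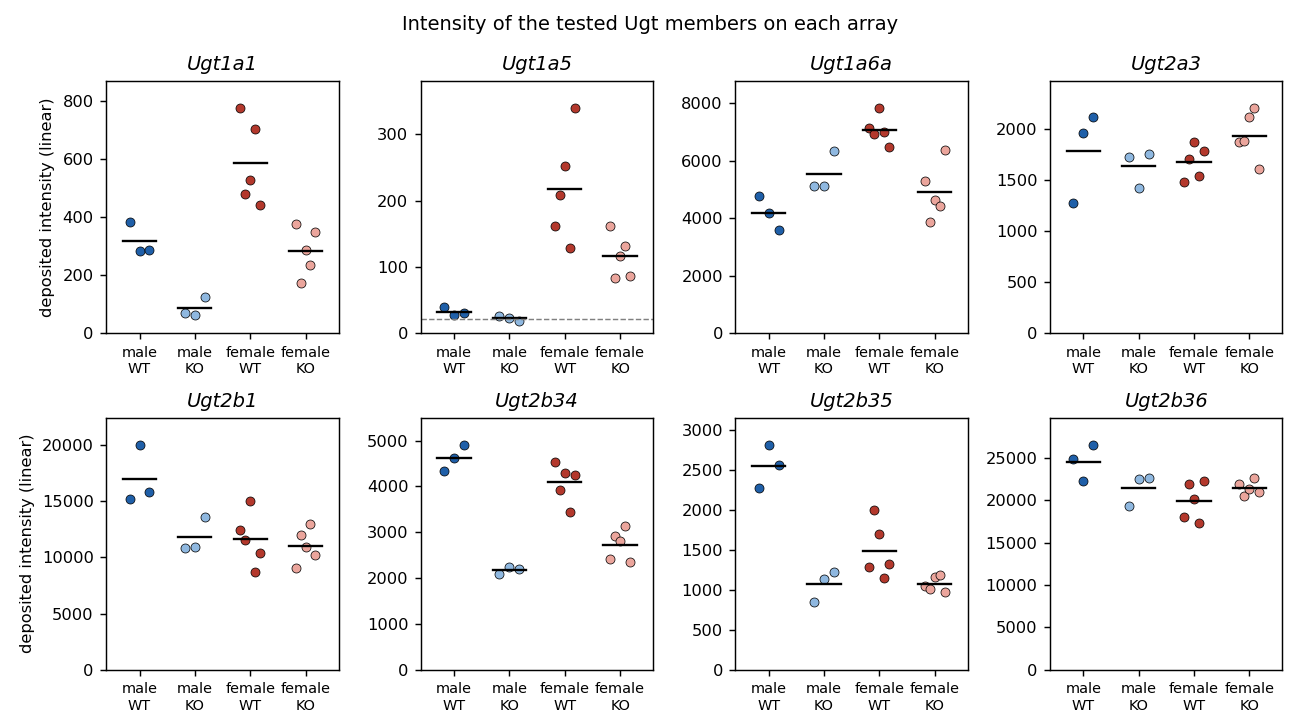
Deposited intensity (linear axis from 0, not comparable between genes) of the 8 tested members on each of 16 arrays, 1 point per array, with the group mean as a bar and the detection threshold dashed for Ugt1a5. Ugt2b34 lies between 2087 and 2242 in male KO and between 4335 and 4911 in male WT livers. Ugt1a5, by its brighter probe, lies at 39.7 or less in every male liver and at 83.2 or more in every female liver.

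Ugt1a1 is the enzyme that conjugates bilirubin. Its intensity was 384, 282 and 285 in male WT livers and 68.9, 61.3 and 125 in male KO livers. In female WT livers it was 777, 479, 528, 706 and 441, and in female KO livers 377, 174, 286, 234 and 349. The 4 groups fell in the order female WT, male WT, female KO and male KO, and only male WT and female KO livers, which differ in both sex and genotype, overlapped. The KO minus WT difference was -1.76 ± 0.29 (SE, limma adjusted p = 0.00409) in males, a 3.39-fold lower level. In females it was -1.02 ± 0.23 (limma adjusted p = 0.0254), 2.03-fold lower. The female call was lost when female WT 1, female WT 4, female KO 7 or female KO 9 was left out, with differences from -0.97 to -0.87 and an adjusted p of at most 0.0729. It was also lost in a fit to the female arrays alone (adjusted p = 0.0527) and without the filter on dim probes (0.053). The male call was kept in all 27 limma alternatives, with differences from -2.03 to -1.46 and a highest adjusted p of 0.0318. An equal-variance test per gene, added after seeing the data, gave an adjusted p of 0.204 in males and 0.13 in females.

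The sex difference of Ugt1a1 was called in KO livers and not in WT livers. In KO livers males were lower by 2.98-fold (log2 difference -1.58 ± 0.26, limma adjusted p = 0.00236, and 0.105 by the equal-variance test). In WT livers the difference was -0.84 ± 0.26 with an adjusted p of 0.0964, although every male array lay below every female array. With array weights it was -0.87 and passed the threshold (adjusted p = 0.0225). The interaction of sex and genotype, the KO effect in males minus that in females, was -0.74 ± 0.37 and was not called (adjusted p = 0.595), so a difference between the sexes in the KO effect was not shown.

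Ugt1a5, by its brighter probe, showed the widest sex difference of the 8 tested members in both genotypes. Its brighter probe read 39.7, 26.6 and 29.9 in male WT livers and 25, 23.1 and 17.8 in male KO livers, close to the detection threshold, and it was detected on 2 of the 3 male KO arrays. In female WT livers it read 162, 208, 252, 129 and 339.8, and in female KO livers 162, 83.2, 116, 131 and 85.9. With this probe no male array reached the level of any female array. Males were 4.67-fold lower in WT livers (log2 difference -2.22 ± 0.26, limma adjusted p = 4.11e-05) and 3.4-fold lower in KO livers (-1.76 ± 0.26, limma adjusted p = 0.000627). These calls held in all 28 and 27 alternatives that did not swap the probe, the equal-variance test included. A second probe gave -1.26 (adjusted p = 0.00837) in WT livers and -0.72 (0.188) in KO livers, the latter not called when tested as a probe of its own. By that second probe the sexes overlapped in KO livers, with 53.1 in male KO 5 and 36.6 in female KO 7.

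Ugt1a5 in female livers was lower in KO than in WT by 0.80 ± 0.22 on the log2 scale in the mean of 5 arrays each, but the groups overlapped and the difference was not called with the brighter probe (limma adjusted p = 0.0798). The second probe read 125, 131, 169.8, 82.4 and 148 in female WT livers and 69.7, 36.6, 56.9, 58.6 and 50.6 in female KO livers, with no overlap. That probe fell by 1.05 (adjusted p over probes 0.0146, where 2.16% of 14946 probes were called). The mean of both probes gave -0.92 (adjusted p = 0.0194). In males the KO minus WT difference was -0.34 ± 0.29 (adjusted p = 0.615), measured close to the detection threshold.

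Ugt1a6a belongs to the enzymes that conjugate planar phenols, and its 3 probes disagreed. The brightest one read 4759.9, 4179 and 3599.9 in male WT livers and 7118, 6936, 7828, 6986 and 6474 in female WT livers, which do not overlap. It read 5111, 5103 and 6335 in male KO livers and 5285, 3862, 4641, 4414 and 6369 in female KO livers, which overlap. In WT livers males were 1.7-fold lower (log2 difference -0.76 ± 0.16, limma adjusted p = 0.0146). This call was lost without male WT 2 (-0.77, adjusted p = 0.065) or male WT 3 (-0.66, 0.112). In KO livers the difference was 0.18 ± 0.16 (adjusted p = 0.677).

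The genotype differences of the brightest Ugt1a6a probe ran opposite ways in the 2 sexes, and neither was called at the settings used throughout. In females it was -0.54 ± 0.14 (limma adjusted p = 0.0593) and the groups did not overlap. It passed the threshold without female KO 10 (-0.64, adjusted p = 0.0243), with an offset of 50 (0.0334), with probes detected on all 16 arrays (0.0423), with cyclic loess (0.0486) and with an intensity trend (0.0256). In males it was 0.40 ± 0.18 (adjusted p = 0.332), and 0.55 with array weights, where it passed (adjusted p = 0.0227). Their interaction was 0.94 ± 0.23, with an unadjusted limma p of 0.000923 and an adjusted p of 0.259, and array weights brought it to 1.097 with an adjusted p of 0.027. Interactions were called for 9 of 9906 genes (0.0909%) and for 0 of 8 members. At an unadjusted limma p under 0.05 there were 3 such members, beside 8.62% of all genes tested.

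The other 2 Ugt1a6a probes had the opposite sign in females between genotypes and in WT livers between the sexes, and the same sign in males between genotypes (0.37 and 0.21, not called). In female WT livers ILMN_1212835 read 374, 272, 263, 619 and 286, and in female KO livers 545, 488, 448, 498 and 605. ILMN_2418855 read 82.8, 42.2, 46.8, 84.3 and 30.5 in female WT livers and 148, 111, 96.8, 80.3 and 141 in female KO livers. Both were higher in the mean of the female KO arrays with overlap in single arrays, by 0.56 ± 0.19 (limma adjusted p over probes 0.197) and by 0.88 ± 0.21 (0.0387). In WT livers, male minus female was 0.45 and 0.37, against -0.76 for the brightest probe. Over the 16 arrays these 2 probes followed each other (Pearson r = 0.788) and the Ugt1a6b probe (0.877 and 0.777), while the brightest had r = -0.354 and -0.302 with them. The brightest followed a probe annotated to Ugt1a10 (r = 0.909). All these points share their arrays and groups, so the values are a description. In these female and WT comparisons the direction for Ugt1a6a depended on the probe.

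The 19 probes annotated to Ugt1a genes, 16 of them detected, were set side by side because the shared downstream exons can make a probe read several Ugt1a transcripts. No probe sequence or position was used here, so which probes lie in the shared exons was not determined. Ugt1a5 followed the neighbouring Ugt1a2, whose probe was 3.25-fold lower in male than in female WT livers (log2 difference -1.70 ± 0.25, limma adjusted p = 0.00051). The correlation of that Ugt1a2 probe with the Ugt1a5 probes was 0.869 and 0.952. Another set of 4 probes, 2 annotated to Ugt1a9 and 2 to Ugt1a10, followed each other with r between 0.918 and 0.985. These were higher in male than in female KO livers by 1.83, 1.82, 2.01 and 1.89 on the log2 scale, opposite to Ugt1a1 and Ugt1a5, and all 4 were called. A Ugt1a9 probe read 2717, 2779 and 2770.1 in male KO livers and 1071, 427, 595, 653 and 1465 in female KO livers.

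Counted by probe, the 16 detected Ugt1a probes had 1 called higher and 5 lower in males in WT livers, where 3.87% of all probes were called. In KO livers 4 were higher and 3 lower (2.19% of all probes). Between genotypes 1 was lower in male KO livers (1.46% of all probes), and 1 was higher and 4 lower in female KO livers (2.16% of all probes). In males 10 of the 16 differences were above 0, and in females 3. These probes are no independent measurements, since several can read the same transcripts.

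**Figure D2:**
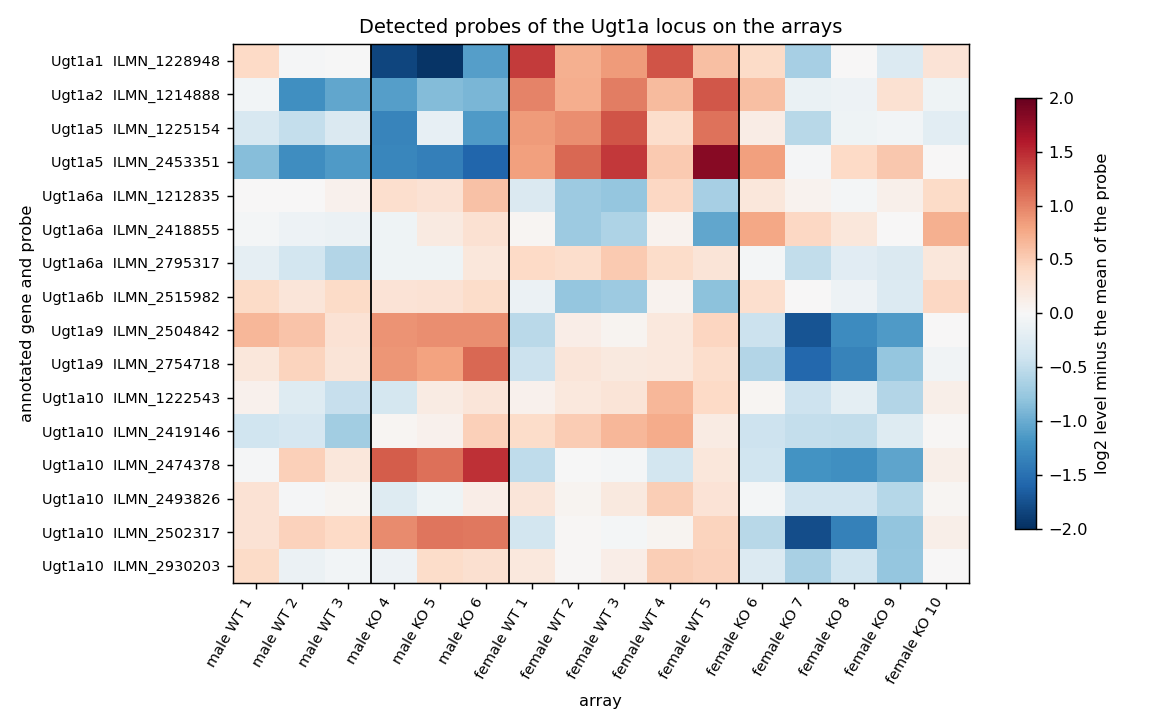
Colour map of the log2 level minus its mean over the 16 arrays for the 16 detected probes annotated to Ugt1a genes (rows, with probe names) on the 16 arrays (columns, groups divided by lines); red is above and blue below the mean of the probe, with extremes of 1.82 and -1.97. The Ugt1a1 row is lowest in male KO livers, the Ugt1a2 and Ugt1a5 rows are low in male livers, and the 2 Ugt1a9 rows are high in male KO livers.

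Ugt2b34, a member of the Ugt2b cluster, was lower in KO livers of both sexes. It read 4335, 4623 and 4911 in male WT livers and 2087, 2242 and 2199 in male KO livers. In female WT livers it read 4528, 3932, 4294, 3450.3 and 4251, and in female KO livers 2421, 2919, 2815, 3143 and 2356. The KO arrays lay below the WT arrays in both sexes, without overlap. The decrease was 2.11-fold in males (log2 difference -1.08 ± 0.15, limma adjusted p = 0.00143) and 1.5-fold in females (-0.58 ± 0.12, limma adjusted p = 0.0149). The male call held in all 27 limma alternatives, and the female call was lost in a fit to the female arrays alone (adjusted p = 0.0683). By the equal-variance test the adjusted p was 0.115 in males and 0.054 in females. The interaction was -0.498 ± 0.195 (0.548 adjusted). No sex difference was called in WT (0.18 ± 0.14) or KO livers (-0.32 ± 0.14), although the male and female KO arrays did not overlap.

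Ugt2b35 was lower in male KO livers and was the member called higher in males in WT livers. It read 2270.2, 2818 and 2561 in male WT livers and 854, 1142 and 1224 in male KO livers. The female WT livers read 1283, 2002, 1704, 1144 and 1321, and the female KO livers 1045, 1016, 1163, 1187 and 972. Male WT livers lay above all others. The KO decrease in males was 2.37-fold (log2 difference -1.25 ± 0.20, limma adjusted p = 0.00372) and held in all 27 limma alternatives, with an adjusted p of 0.174 by the equal-variance test. In females the difference was -0.44 ± 0.16 with overlap (adjusted p = 0.222). The interaction was -0.81 ± 0.26 (unadjusted p = 0.00669 in limma, adjusted p = 0.476).

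The sex difference of Ugt2b35 in WT livers was 1.73-fold (log2 difference 0.79 ± 0.18, limma adjusted p = 0.023), with no overlap. It was lost without male WT 2 (adjusted p = 0.132), male WT 3 (0.101) or female WT 1 (0.0508) and in a fit to the WT arrays alone (0.116), and by the equal-variance test (0.172). In KO livers the difference was -0.016 ± 0.18, with a 95% interval of -0.41 to 0.37.

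Ugt2b1, which in the rat conjugates steroids and phenols, had no called difference. It read 15160.0, 20035 and 15795 in male WT livers and 12478, 11583, 14999, 8739.6 and 10360.2 in female WT livers. The male KO livers read 10819, 10932 and 13641, and the female KO livers 9043 to 12996. Male WT livers lay above the other 3 groups, by 0.56 ± 0.18 over female WT (limma adjusted p = 0.109) and 0.52 ± 0.20 over male KO livers (0.242). The KO minus WT difference in females was -0.063 ± 0.16, with a 95% interval of -0.40 to 0.27.

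Ugt2b36 was read by 2 probes and had no called difference. The brighter one read 24893, 22234 and 26534 in male WT livers and 17971, 21928, 20168, 17299 and 22234 in female WT livers, a difference of 0.305 ± 0.13 (limma adjusted p = 0.24). The other probe read 21616 to 24461 in male WT and 17040.4 to 20871 in female WT livers, without overlap, and gave 0.27 (adjusted p over probes 0.325). In KO livers the brighter probe read 19341 to 22601 in males and 20439 to 22601 in females. Its KO minus WT difference was -0.19 in males (95% interval -0.51 to 0.12) and 0.11 in females (-0.13 to 0.36). With array weights the WT sex difference was 0.35 and passed the threshold (adjusted p = 0.0393).

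Ugt2a3, whose human counterpart conjugates bile acids, overlapped in all 4 comparisons of groups. It read 1275, 1953 and 2117 in male WT livers, 1482 to 1868 in female WT livers, 1419 to 1749.5 in male KO livers and 1605 to 2201 in female KO livers. The largest of its differences was -0.24 ± 0.17, between male and female KO livers (limma adjusted p = 0.567). Its second probe was detected on 0 arrays.

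**Figure D3:**
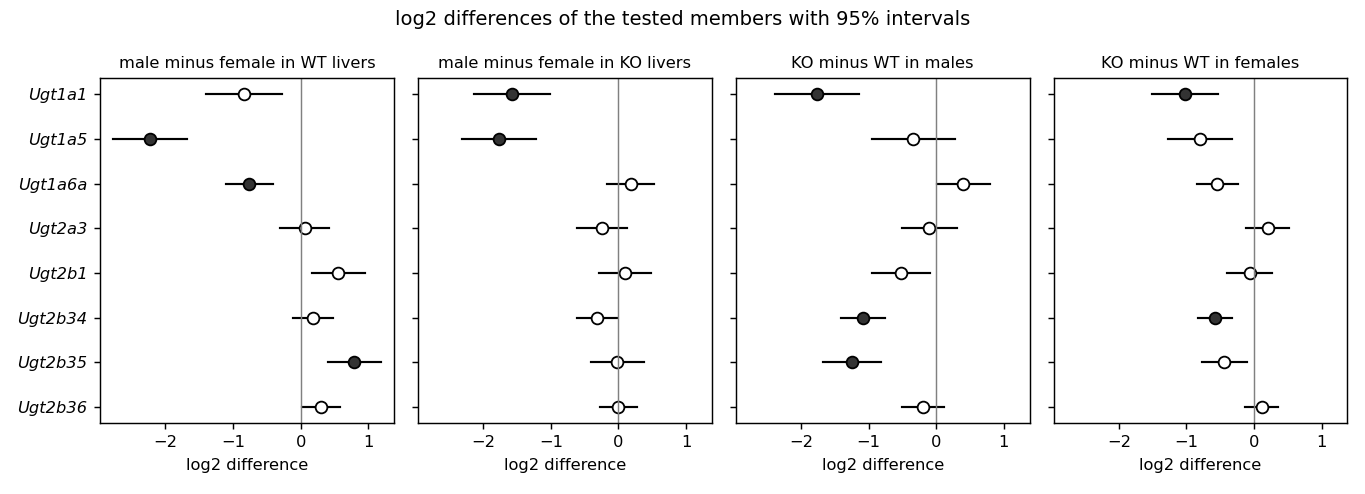
Difference on the log2(intensity + 16) scale with its 95% interval (limma) for the 8 tested members in 4 comparisons; filled points passed an adjusted p of 0.05. Between genotypes the filled points, all left of 0, are Ugt1a1, Ugt2b34 and Ugt2b35 in males (-1.76, -1.08 and -1.25) and Ugt1a1 and Ugt2b34 in females (-1.02 and -0.58).

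Over the 16 arrays the levels of Ugt2b34 and Ugt2b35 had a Pearson r of 0.794, Ugt2b1 and Ugt2b35 one of 0.784, and Ugt1a1 and Ugt1a5 one of 0.712. After the group means were taken out these were 0.357, 0.599 and -0.205. For the 2 members that varied most between the groups, the genes outside the Ugt families with the most similar levels were Hao2 (r = 0.955), Mgst3 (0.948) and Mbl2 (0.945) for Ugt1a5. For Ugt1a1 they were Cyp2c50 (0.944), Cyp2c37 (0.943) and Cyp2a5 (0.933). These correlations follow the 4 groups and are given without a p.

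Of 12 other UDP-glycosyltransferases 6 were tested. Ugt1a6b was higher in males in WT livers (0.81 ± 0.21, limma adjusted p = 0.0466). The related Ugt3a2 was higher in KO than in WT livers, by 0.91 ± 0.18 in males and 0.70 ± 0.14 in females (limma adjusted p = 0.0128 and 0.0118), and Ugt3a1 was higher in females with overlap of the groups (0.65 ± 0.17, limma adjusted p = 0.0468). Adjusted over probes, this Ugt3a1 probe missed the threshold (0.0518), as did its second probe (0.225). Of the 6, 0 were called lower by limma in KO livers, beside 0.646% of all genes in males and 1.09% in females. An unadjusted p under 0.05 in either direction was found for 1 in males and 6 in females, beside 14.3% and 12.4% of all genes. In females Ugt1a2 (-0.81), Ugt1a9 (-0.965) and Ugt1a10 (-0.53) fell without a call, while Ugt1a6b, Ugt3a1 and Ugt3a2 rose. The second Ugt1a9 probe (-0.977) and a dimmer Ugt1a10 probe (-0.815) were called lower in females (limma adjusted p over probes 0.0388 and 0.00825). The remaining Ugt1a10 probes were not called there.

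Among 18 genes that make and move UDP-glucuronic acid 12 were tested. Ugp2, which makes UDP-glucose, was the 1 called higher in female KO livers (0.88 ± 0.15, limma adjusted p = 0.00459), where 1.29% of all genes were. Slc35d2, a nucleotide sugar transporter, was the 1 called higher in males in WT livers (1.32 ± 0.20), where 1.62% of all genes were. In the 4 comparisons of groups 0 of the 12 were called lower by limma, beside 0.646% to 2.11% of all genes tested. In each comparison 2 or 3 had an unadjusted limma p under 0.05 in either direction, beside 12.4% to 17.4% of all genes.

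Among 12 genes of glucuronide transport and cleavage 11 were tested. Abcc3 and Ces1e were lower in KO livers of both sexes, as Ugt1a1 and Ugt2b34 were, where 0.646% of all genes were called lower in males and 1.09% in females. At an unadjusted limma p under 0.05 there were 3 of the 11 in males and 7 in females, beside 14.3% and 12.4% of all genes. Abcc3 exports glucuronides into blood, and it was lower by 2.97-fold in males and 2.14-fold in females (limma adjusted p = 0.0018 and 0.00309). Ces1e holds beta-glucuronidase in the endoplasmic reticulum, and it was lower by 3.84-fold and 2.25-fold (limma adjusted p = 0.00298 and 0.0158). The uptake transporters Slco1a4 (1.117) and Slc22a7 (0.84) were higher in female KO livers, where 1.29% of all genes were called higher. In WT livers Slco1a1 (3.01) and Slco1a4 (1.39) were higher and the exporter Abcc4 (-1.115) lower in males. Of all genes 1.62% were called higher and 2.11% lower in that comparison.

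Of 24 transcription factors linked to Ugt genes 18 were tested. Between genotypes 0 were called by limma in either sex, beside 1.56% of all genes in males and 2.38% in females. At an unadjusted limma p under 0.05 there were 4 in males and 2 in females, beside 14.3% and 12.4% of all genes. Esr1, the oestrogen receptor, was lower in males in WT (-1.47 ± 0.18) and KO livers (-0.84 ± 0.18), and Rxrg was lower in males in WT livers (-1.27 ± 0.28).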

How the data were processed

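Liver RNA of 16 samples was measured on Illumina mouse Ref-6 v2 arrays. The deposited values are intensities on a linear scale that the authors' core facility background-subtracted and normalized. The processing notes name lumi without a version, and the sorted values of the arrays show quantile normalization. A second table was not used, since its 32 columns match no sample label. The methods section names no test for the arrays, while a table legend names a t-test at 0.1 with a 1.5-fold change. That equal-variance test per gene was added as an alternative after seeing the data. Negative values were raised to 0, and log2 was taken of the value plus 16. A probe of a single gene was kept where detected on at least 3 arrays (14946 probes), and the brightest probe stood for each of 9906 genes. Groups and replicate numbers came from the labels. The 4 group means were fitted over all 16 arrays with limma 3.58.1 in R 4.3.3 (12 residual and 4.03 prior degrees of freedom), with Benjamini-Hochberg adjustment, after a test on simulated data. Arrays give no read depth, and their number limits the precision. Every member was named, with all its probes, and so were passing genes of the pathway lists. Of 45281 probes, 34885 had 1 gene symbol, 18 several and 10378 none. The members, the lists and the tests were chosen with earlier results of these data known. Alternatives covered the offset (4 and 50), the floor, the filter, the choice of probe, cyclic loess, array weights, an intensity trend, the arrays in the fit, a replicate block and each array left out.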

Additional observations from a re-analysis of the deposited data

Results flagged for a closer look

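A probe annotated to Ugt1a10 was the single Ugt probe whose KO effect differed between the sexes by the test of that difference. The KO effect in males minus that in females was 1.494 on the log2 scale (SE 0.251, limma adjusted p over probes 0.0441), where 0.0468% of probes were called. It read 1831, 1898 and 1483 in male WT and 2486, 2561 and 3362 in male KO livers, and 2712 to 4029 in female WT and 1708 to 2461 in female KO livers, without overlap in either sex. Its own differences were 0.68 in males (adjusted p = 0.114) and -0.815 in females (0.00825). It lies in the set whose transcripts could not be assigned, and it followed the brightest Ugt1a6a probe (r = 0.909). In a check of the highest and lowest array of each group of 5, over 24 groups, 0 were set apart, where chance alone would give about 1 in 20.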

How the results depend on the processing

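The number of members called in the WT sex comparison (3) was 5 with array weights, 1 with the replicate block on 6 arrays and 1 to 3 with an array left out. In KO livers it went from 2 to 1 with probes detected on all 16 arrays, where 7 members remained. Between genotypes in females it went from 2 to 1 without the filter on dim probes, to 0 with only the female arrays, and to 1 to 3 with an array left out. The equal-variance test per gene, added after seeing the data, called 1 member in the KO sex comparison and 0 between genotypes in males, where it called 0 of 9906 genes, and in females, where it called 82, after adjustment. At a p under 0.1 and a 1.5-fold change, without adjustment, 4 members passed in WT sex, 2 in KO sex, 3 in males and 2 in females between genotypes, beside 9.17%, 8.56%, 10.2% and 5.54% of all genes. Array weights brought 1 member interaction past the threshold against 0. Signs turned for Ugt1a6a by choice of probe: in WT livers the sex difference was 0.017 with the mean of its probes and 0.446 and 0.368 with the other 2, in KO livers -0.297 with one of them, in female KO minus WT 0.3 with the mean and 0.56 and 0.88 with the others, and in the interaction -0.193 and -0.665. For Ugt2b36 the KO sex difference turned to 0.115 (mean of probes), 0.027 (cyclic loess), 0.009 (array weights) and 0.232 (other probe), and the female KO minus WT difference to -0.063 (other probe). With 1 array left out, uncalled differences near 0 changed sign: Ugt2a3 in WT sex ranged from -0.079 to 0.284 and in male KO minus WT from -0.323 to 0.039, Ugt2b1 in female KO minus WT from -0.16 to 0.035 and in KO sex from -0.011 to 0.159, Ugt2b35 in KO sex from -0.118 to 0.138, and Ugt2b36 there from -0.04 to 0.073. The cause was not tested.

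Of 1127 single-gene values under alternatives, 1065 kept their direction and their side of the threshold, 23 lost a call, 13 gained one and 26 changed sign. WT animals of both sexes carry numbers 1 to 3. Between WT males and females of unlike number, deviations from the group means correlated at -0.445 to 0.567, for a cause that was not tested. Between those of like number they correlated at 0.098, 0.261 and 0.075, so the numbers were not taken as pairs. The replicate block on those 6 arrays called 76 genes, against 107 without the block, and the WT sex calls of Ugt1a6a (adjusted p = 0.158) and Ugt2b35 (0.192) were lost. That fit used 6 arrays where the main fit used 16, so the part of the block in this loss was not tested. Among the limits are the male groups of 3, Ugt1a5 near the detection threshold in males, and Ugt1a probes whose transcripts could not be told apart.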
